A study of Mus musculus with 12 samples.

Results

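Cholangiocytes are the epithelial cells that line the bile ducts, and liver progenitor cells share much of their gene programme. The list followed here held 9 genes of these cells, taken by their gene symbol: Epcam, Krt7, Krt19, Krt23, Muc1, Sox9, Spp1, Cd24a and Plet1. A probe set with a single gene symbol was found for 8 of them among 18820 genes measured. Spp1, which encodes osteopontin, was not analysed here because the platform annotation used names no probe set for it. Each of the other 8 had 1 probe set. The genes were chosen by their log2 differences between JNKΔhepa and WT on these same arrays, and Plet1 because its genotype difference ran in opposite directions in the liver and the hepatocytes. The genotype values of the list are therefore given as a description, and only the contrast between the tissues is tested.

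RNA was measured on 12 arrays from 6 male mice on a C57BL/6 background, 7 to 8 weeks old, kept on standard chow. The groups were JNKΔhepa primary hepatocytes, WT primary hepatocytes, JNKΔhepa whole liver and WT whole liver, with 3 arrays each, and each mouse gave both tissues. JNKΔhepa mice carried floxed Jnk1 that was deleted by Cre under the albumin promoter and alpha-fetoprotein enhancer elements, and they lacked Jnk2 in every cell, bile duct cells included. WT mice were littermates with floxed, undeleted Jnk1 and intact Jnk2 (Jnk1f/fJnk2+/+). Mapk9, the gene of JNK2, averaged 2.49 in JNKΔhepa against 7.96 in WT hepatocytes on the log2 scale, and 2.74 in JNKΔhepa against 8.64 in WT liver (n = 3 each). Mapk8, the gene of JNK1, averaged 4.99 in JNKΔhepa against 5.59 in WT hepatocytes (1.52-fold lower, limma adjusted p = 0.00183), and 5.98 in JNKΔhepa against 6.39 in WT liver (1.32-fold lower, adjusted p = 0.027). It read above the median of every array in both genotypes, and whether its probe set lies in the deleted part is not given in the labels. Markers of hepatocytes such as Alb and Ttr stood at the top of every array, with a mean percentile of at least 99.5 in each.

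Biliary epithelium arises in the embryo from the same bipotent precursor as hepatocytes, under Notch signalling and the transcription factor Sox9, and it carries keratins 7 and 19 that mature hepatocytes hardly make. After injury, ductular cells and some hepatocytes that take on biliary genes appear around the portal tracts. The c-Jun N-terminal kinases JNK1 and JNK2 phosphorylate Jun, a subunit of the AP-1 transcription factor. The letters searched for AP-1 here were TGANTCA, in which N stands for any base.

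The promoter windows of the 3 genes with the largest genotype differences in liver are shown here because those genes were higher together in JNKΔhepa liver. They come from RefSeq (GRCm38.p6), which held a window for 6 of the 9 genes, and each runs from 250 bases before the start of the gene to 50 after it. Capitals mark matches to the motifs searched on both strands, which were TGANTCA (AP-1), TGACGTCA (the cAMP response element), GGAATG (TEAD), GTGGGAA (RBPJ, the Notch effector) and ACAATGG (SOX9). The motifs do not contain one another.
Plet1, chr9:50494275-50494574, plus strand: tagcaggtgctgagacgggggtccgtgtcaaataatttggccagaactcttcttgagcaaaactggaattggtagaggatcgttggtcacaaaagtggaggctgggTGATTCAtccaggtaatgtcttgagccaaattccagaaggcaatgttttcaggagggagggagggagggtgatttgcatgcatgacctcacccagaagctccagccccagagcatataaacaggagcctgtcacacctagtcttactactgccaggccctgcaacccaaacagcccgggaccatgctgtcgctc
Muc1, chr3:89228806-89229105, plus strand: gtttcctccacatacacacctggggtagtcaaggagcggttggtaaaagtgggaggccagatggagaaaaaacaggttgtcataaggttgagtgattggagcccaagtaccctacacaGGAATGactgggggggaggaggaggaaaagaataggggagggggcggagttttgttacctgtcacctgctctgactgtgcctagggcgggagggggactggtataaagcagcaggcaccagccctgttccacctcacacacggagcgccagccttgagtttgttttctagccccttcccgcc
Krt23, chr11:99493071-99493370, minus strand: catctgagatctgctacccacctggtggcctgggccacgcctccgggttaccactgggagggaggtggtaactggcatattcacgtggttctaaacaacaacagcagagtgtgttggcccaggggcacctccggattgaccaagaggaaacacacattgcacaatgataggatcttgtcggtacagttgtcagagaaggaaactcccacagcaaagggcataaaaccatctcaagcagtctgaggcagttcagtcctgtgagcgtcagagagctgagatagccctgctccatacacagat
The Plet1 window held 1 match to the AP-1 letters, with T in the place of N, which begins 144 bases before the gene's start. The Muc1 window held 1 TEAD match, 132 bases before the start, and the Krt23 window held 0 matches. The AP-1 letters occur in 7.79% of 32544 promoter windows, the TEAD letters in 14.6%, the RBPJ letters in 6.39%, the SOX9 letters in 3.68% and the cAMP response element in 1.8%. The windows of Epcam, Krt7 and Spp1 held 0 matches. A match is a string of letters and was not shown to be bound.

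The first question was where these genes read in isolated hepatocytes compared with the whole liver that contains the bile ducts. Of the 8 measured genes, 6 fell in hepatocytes (Plet1, Cd24a, Krt19, Epcam, Muc1 and Krt7) and 2 rose (Krt23 and Sox9), in limma with Benjamini-Hochberg adjustment over all genes. Over all genes, 22% fell and 23.1% rose, 45.1% in all. In each of the 8 genes the 6 hepatocyte arrays did not overlap the 6 liver arrays, against 12.4% of all genes lower and 10.5% higher without overlap. The median difference of the list was −0.90 on the log2 scale, beside 0.016 over all genes. In bulk RNA, fewer cells of a type and less RNA per cell cannot be told apart.

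These differences, hepatocytes minus liver, are given after quantile normalisation over all 12 arrays. The deposited values had array medians of 3.22 to 3.28 in hepatocytes and 4.09 to 4.12 in liver, so the tissues appear to have been scaled separately. Levels printed for single arrays are the deposited log2 values, which are not comparable between the tissues, and the percentile gives the share of all 35556 probe sets that read lower on the same array. A reading below its array's median is called dim. The size of a difference is a lower bound where the dimmer group has a dim array, and is called not exact where both groups have one. As deposited, the median of all genes lay at −0.58, and 0.84% of the calls were higher in hepatocytes, compared with 51.2% after joint normalisation and 82.7% when each array was centred on its median.

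Plet1, which encodes a cell-surface protein used as a marker of epithelial progenitors in the mouse, showed the largest contrast of the list. In hepatocytes it read 2.29, 1.93 and 1.88 in JNKΔhepa replicates 1, 2 and 3, against 3.42, 3.10 and 2.83 in WT. In liver it read 6.90, 6.81 and 6.53 in JNKΔhepa, against 5.90, 6.10 and 6.03 in WT. Every liver array thus stood between the 68.6 and 77.3 percentile of its probe sets, and 5 of the 6 hepatocyte arrays were dim. Averaged over the genotypes, Plet1 fell at least 8.58-fold in hepatocytes (log2 difference −3.10, SE 0.118, limma adjusted p = 4.28e-09, lower in 6 of 6 mice).

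Cd24a, a heavily glycosylated surface protein of biliary and progenitor cells that B cells and erythroid cells also carry, fell at least 3.25-fold (log2 difference −1.70, SE 0.156, limma adjusted p = 3e-06). Its hepatocyte arrays read 2.81, 2.71 and 2.37 in JNKΔhepa and 3.24, 2.73 and 2.48 in WT. Its liver arrays read 5.54, 5.58 and 4.98 in JNKΔhepa and 5.18, 4.96 and 4.94 in WT. Epcam, the epithelial cell adhesion molecule, read 2.12, 2.12 and 2.04 in JNKΔhepa hepatocytes and 2.03, 2.03 and 2.04 in WT hepatocytes. In liver it read 3.95, 3.69 and 3.93 in JNKΔhepa and 3.66, 4.01 and 3.83 in WT. Its percentile was 20.7 to 25.9 on the hepatocyte arrays and 44.5 to 49.0 on the liver arrays, and it fell by 1.12 on the log2 scale (SE 0.0693, limma adjusted p = 1.24e-07, size not exact).

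The 3 keratins of the list divided. Krt19, the type I keratin most used to mark bile ducts, read 2.27, 1.98 and 1.94 in JNKΔhepa hepatocytes and 1.88, 2.03 and 1.96 in WT hepatocytes. In liver it read 4.06, 3.78 and 4.28 in JNKΔhepa and 4.34, 4.54 and 4.29 in WT. It fell by 1.53 (SE 0.0931, limma adjusted p = 1.07e-07, size not exact), and in the 6 mice the difference ran between −1.86 and −1.08. Krt7, its type II counterpart in ducts, averaged 2.43 ± 0.173 in JNKΔhepa and 2.71 ± 0.0991 in WT hepatocytes, and 3.81 ± 0.12 in JNKΔhepa and 3.91 ± 0.12 in WT liver (SD, n = 3 each). It fell by 0.55 (SE 0.0796, limma adjusted p = 0.000136, size not exact), a smaller step than that of Krt19 or Epcam. Krt23, another type I keratin, went the other way and rose by 1.06 in hepatocytes (SE 0.0874, limma adjusted p = 1.17e-06, size not exact), in 6 of 6 mice.

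Muc1, a membrane mucin of the apical surface of ducts, was dim on all 12 arrays. Its percentile was at most 23.0 on the hepatocyte arrays and 30.0 to 46.2 on the liver arrays, and it fell by 0.67 in hepatocytes (SE 0.0779, limma adjusted p = 2.11e-05, size not exact). Sox9 was the only gene of the list above the median on every array. Its deposited values ran from 5.85 to 6.01 in hepatocytes and from 5.76 to 6.47 in liver, with percentiles of 74.1 to 75.5 in hepatocytes and 66.7 to 74.1 in liver. After joint normalisation it rose 1.51-fold in hepatocytes (log2 difference 0.59, SE 0.101, limma adjusted p = 0.000482), whereas as deposited its difference was −0.13 and did not pass (limma adjusted p = 0.223). That value lies above the shift of −0.58 that all genes showed as deposited.

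**Figure D1:**
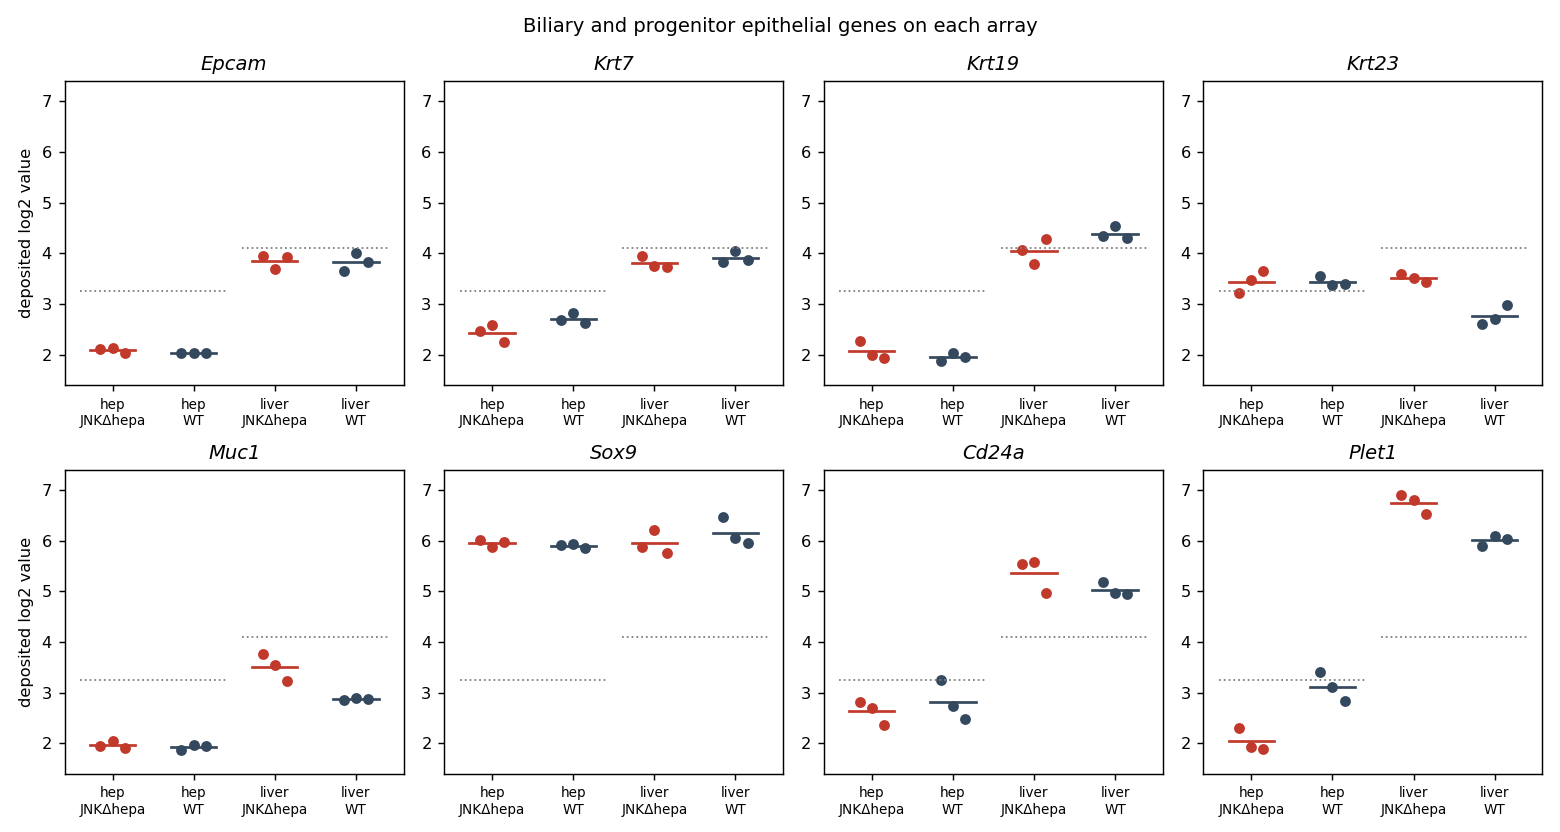
Deposited log2 value (y axis) of 8 biliary and progenitor genes on each of 12 arrays, with 3 arrays a group (points) and the group mean (bar); "hep" is primary hepatocytes, and dotted lines mark the mean array median of each tissue. Plet1 and Cd24a read far above the median in liver and mostly below it in hepatocytes, Sox9 lies above it in all groups, and within liver Krt23 is lower in WT than in JNKΔhepa.

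**Figure D2:**
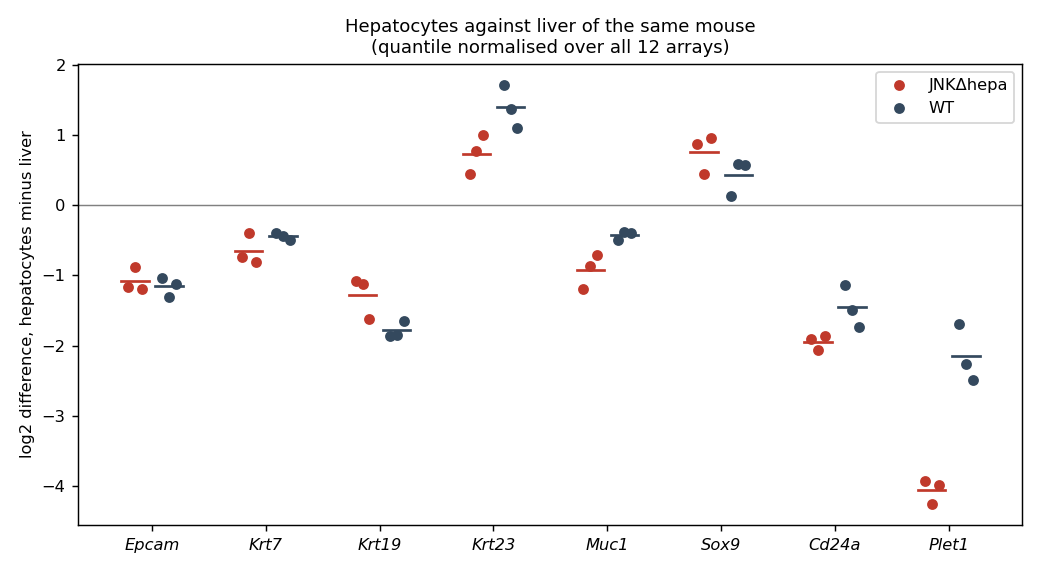
Log2 difference between hepatocytes and liver of the same mouse (y axis, after quantile normalisation over all 12 arrays) for 3 JNKΔhepa and 3 WT mice (points) with the group mean (bar). All 6 mice lie below 0 for Plet1, Cd24a, Krt19, Epcam, Muc1 and Krt7, and above 0 for Krt23 and Sox9.

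Markers of several other cell types also fell in hepatocytes. Over all genes 22% fell and 23.1% rose, 45.1% in all. Stellate cell markers fell in 8 of 8 cases in hepatocytes (median −1.72), sinusoidal endothelial markers in 7 of 7 (median −1.29), Kupffer cell and macrophage markers in 7 of 8 (median −1.51) and B cell markers in 3 of 3 (median −1.48), all in limma adjusted over all genes. Of 6 mesothelial markers, 4 fell, and Krt19 itself is one of them. Of 6 neutrophil markers 3 fell and 3 did not pass (median −0.24). So 3 of 6 passed, near the 45.1% of all genes, and that count is no result about neutrophils. The 3 erythroid markers divided, with Slc4a1 lower (−0.40, adjusted p = 0.00167), Alas2 higher (0.52, adjusted p = 0.00597) and Epb42 not past the threshold (median 0.00163). Of 8 hepatocyte markers Ttr rose, Cyp2e1 fell and 6 did not pass. The part of these cell types in the differences between the tissues was not tested.

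Other genes of the biliary epithelium were less uniform. Of 37 measured, 15 fell and 5 rose in hepatocytes, beside 22% and 23.1% of all genes. In all 20 of 37 passed, beside 45.1% of all genes. The median difference was −0.15, beside 0.016 over all genes. Bicc1, an RNA-binding protein whose loss gives cystic ducts, fell by 1.51 (SE 0.0791, limma adjusted p = 3.07e-08, a lower bound). With the mean over its probe sets in place of the brightest it fell by 0.80. Ddr1, a collagen receptor kinase, fell by 0.95, St14, the membrane protease matriptase, by 0.92, and Sox4, a relative of Sox9, by 0.83 (limma adjusted p = 3.58e-07, 1.73e-06 and 1.49e-06, sizes not exact). Krt8 and Krt18, the keratin pair that hepatocytes share with ducts, had differences of 0.13 (SE 0.0847) and 0.20 (SE 0.0915) and did not pass; both were named for being that pair, outside the rule on p.

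Of 14 progenitor and ductular reaction genes, 5 fell and 2 rose, so 7 of 14 passed, near the 45.1% of all genes, and the count is no result about the list. Lgr5, a Wnt-dependent receptor that pericentral hepatocytes also make, fell by 2.16 (SE 0.152, limma adjusted p = 3.23e-07), Cd44 by 1.00 (adjusted p = 0.000202, a lower bound), and Prom1 and Gpc3 by 0.79 and 0.64 (adjusted p = 6.01e-05 and 0.000258, sizes not exact). In the Notch pathway 10 of 16 genes fell and 1 rose, beside 22% and 23.1% of all genes. Lfng, the glycosyltransferase that modifies Notch receptors, fell by 1.57 (SE 0.132, limma adjusted p = 1.48e-06, a lower bound), and the Notch target genes Hey1, Heyl and Nrarp by 0.69, 0.65 and 0.60 (adjusted p = 9.55e-05, 6.76e-05 and 5.47e-05, size a lower bound for Heyl and not exact for the others). Hes1, a Notch target that hepatocytes make too, was the gene that rose (0.77, SE 0.145, limma adjusted p = 0.001), a name added after its value was seen.

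The second question was how loss of JNK2 in all cells, together with the Cre deletion of Jnk1, went with these genes in whole liver. Whether Jnk1 was also deleted in bile duct cells was not tested. Krt23, Plet1 and Muc1 were higher in JNKΔhepa liver, each with all 3 JNKΔhepa arrays above all 3 WT arrays, as in 12.9% of all genes. Epcam, Krt7, Krt19, Sox9 and Cd24a were not apart in that direction. The 3 higher genes passed the threshold of the fit over all genes, where 0.558% of genes passed as higher and 0.367% as lower. Since the list was chosen with this contrast in view, nothing is read from that count. It was 0 without JNKΔhepa liver replicate 1 or WT liver replicate 1, and 1 without JNKΔhepa liver replicate 2 or WT liver replicate 2. Plet1 was the least steady of the 3: it did not pass when any 1 of the 6 liver arrays was left out, nor without JNKΔhepa hepatocyte replicate 2 or 3 or WT hepatocyte replicate 2, although its difference stayed between 0.66 and 0.84.

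Krt23 in liver read 3.60, 3.52 and 3.44 in JNKΔhepa replicates 1, 2 and 3, against 2.61, 2.71 and 2.97 in WT. The groups were apart, with a log2 difference of 0.75 (SE 0.122), but all 6 arrays were dim and the size is not exact. Muc1 in liver read 3.77, 3.55 and 3.22 in JNKΔhepa, against 2.86, 2.89 and 2.88 in WT. The WT arrays lay within a narrow band, and the JNKΔhepa arrays were spread above it (log2 difference 0.64, SE 0.115, size not exact). Plet1, whose liver values are given above, differed by 0.73 (SE 0.153) and was dim on none of the 6 liver arrays, which makes 1.66-fold.

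The other measured genes of the list gave no such pattern. Epcam differed by 0.0249 (SE 0.101) and Krt7 by −0.11 (SE 0.108), and their arrays overlapped between the genotypes. Krt19 was lower by 0.35 (SE 0.128), with the 3 JNKΔhepa arrays below the 3 WT arrays, as were the arrays of 7.57% of all genes, and it did not pass. Sox9 read 5.87, 6.21 and 5.76 in JNKΔhepa liver and 6.47, 6.06 and 5.94 in WT liver, a difference of −0.21 (SE 0.138) with overlapping arrays. Cd24a differed by 0.33 (SE 0.199), its JNKΔhepa replicate 3 lying among the WT arrays.

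B cell markers, which bear on Cd24a, were higher in JNKΔhepa liver in 3 of 3 genes (median 0.47), and the log2 of their summed level was 5.82 to 6.26 in JNKΔhepa and 5.52 to 5.78 in WT liver. By limma 0 of the 3 passed, and 2 had an unadjusted p under 0.05, as did 12.5% of all genes. Mesothelial markers other than Krt19 were lower in 4 of 5 genes (median −0.17), with 0 past the threshold and 0 at an unadjusted p under 0.05, and the log2 of the summed level of the list was 5.77 to 6.24 in JNKΔhepa and 6.18 to 6.33 in WT liver. Of 3 erythroid markers 2 were above 0 (median 0.12), and 1 had an unadjusted p under 0.05 with 0 past the threshold. The part of these cell types in the values above was not tested.

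**Figure D3:**
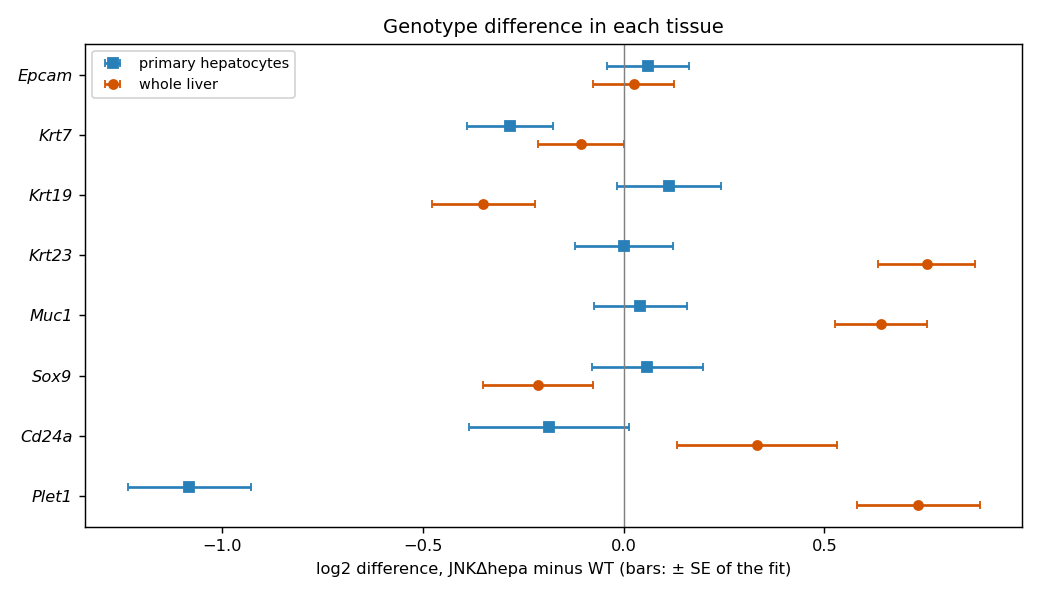
Log2 difference between JNKΔhepa and WT (x axis) for 8 genes in primary hepatocytes (squares) and whole liver (circles), with bars of 1 SE from the fit over all 12 arrays. In liver Krt23, Plet1 and Muc1 lie furthest above 0, and in hepatocytes Plet1 alone lies far from 0, at −1.08.

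In hepatocytes Plet1 was the 1 gene of the list past the threshold, and it was lower in JNKΔhepa. Over all genes 0.473% passed as lower and 0.367% as higher, while 7.32% had JNKΔhepa arrays wholly below WT arrays and 7.36% wholly above, and again nothing is read from the count. Its difference was −1.08 (SE 0.153), and with all 3 JNKΔhepa and 2 WT arrays dim the size is not exact. The JNKΔhepa arrays stood between the 18.1 and 31.1 percentile, and the WT arrays between the 43.5 and 52.3 percentile. Krt7 was the other gene whose JNKΔhepa arrays all lay below the WT arrays (−0.28, SE 0.108), without passing. Krt23, so different between the livers, read 3.21, 3.48 and 3.64 in JNKΔhepa hepatocytes and 3.56, 3.37 and 3.403 in WT hepatocytes, a difference of 0.000218 (SE 0.122). Muc1 differed by 0.0416 (SE 0.115), Epcam by 0.0606 (SE 0.101), Sox9 by 0.0592 (SE 0.138), Krt19 by 0.11 (SE 0.128) and Cd24a by −0.19 (SE 0.199), and all 5 overlapped.

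Markers of 3 kinds of non-parenchymal cells were lower in JNKΔhepa hepatocytes in all or nearly all genes. Those of other kinds went in either direction. Kupffer cell and macrophage markers were below 0 in 8 of 8 genes (median −0.76), and the log2 of their summed level was 8.21 to 8.81 in JNKΔhepa and 8.77 to 9.55 in WT hepatocytes. Sinusoidal endothelial markers were below 0 in 7 of 7 (median −0.53), with 9.63 to 10.14 in JNKΔhepa and 10.04 to 10.43 in WT hepatocytes, and stellate markers in 7 of 8 (median −0.21). In limma 0 genes of these 3 lists passed, and 6 of 8, 6 of 7 and 3 of 8 had an unadjusted p under 0.05, as did 12.6% of all genes. Erythroid markers were above 0 in 3 of 3 genes (median 0.077) and neutrophil markers in 4 of 6 (median 0.073). Mesothelial markers other than Krt19 were below 0 in 3 of 5 (median −0.048) and B cell markers in 2 of 3 (median −0.14). None of these passed. The biliary markers Epcam and Krt19 were dim in both genotypes, at the 15.4 to 30.5 percentile, and Cftr was dim in both as well. Krt7, lower in JNKΔhepa as given above, was dim at the 29.8 to 43.4 percentile. Sox9 was not dim and stood at the 74.1 to 75.5 percentile. The part of other cell types in the value of Plet1 was not tested.

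**Figure D4:**
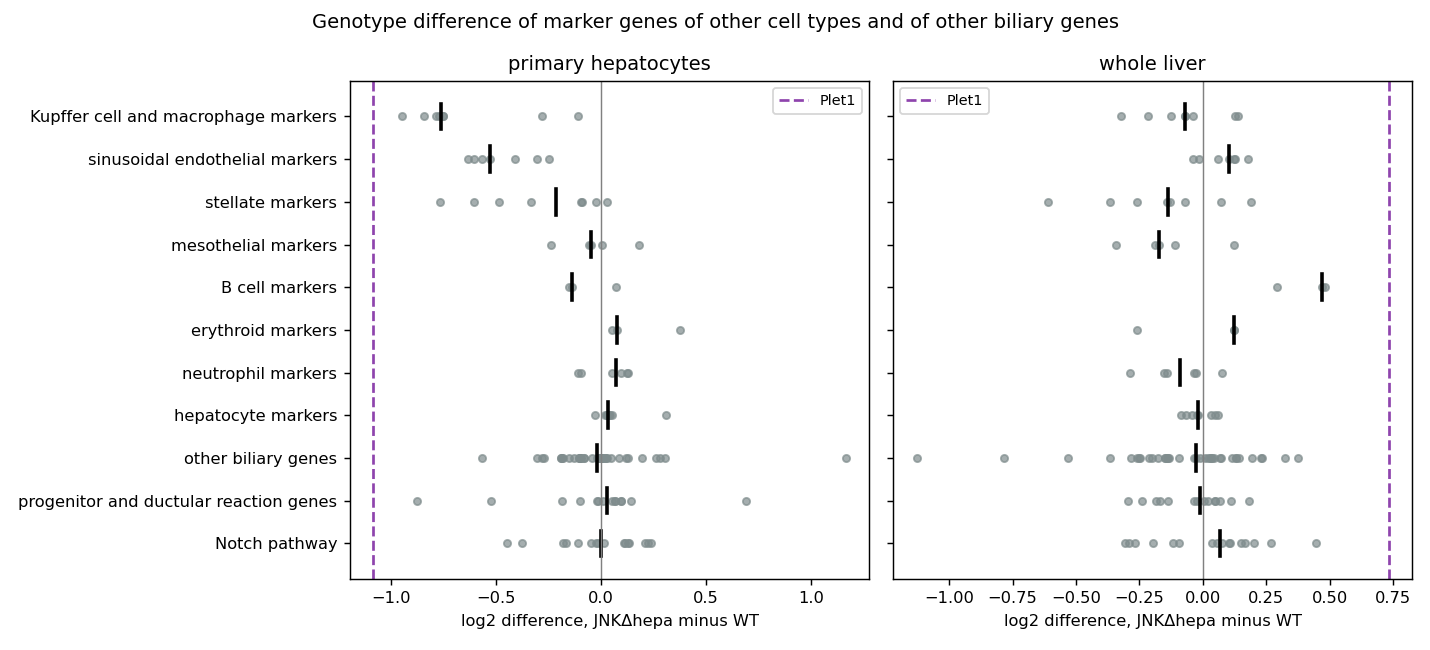
Log2 difference between JNKΔhepa and WT (x axis) of the genes of 11 lists (points, members of the biliary list left out; bar, list median) in primary hepatocytes and whole liver, with Plet1 as a dashed line. In hepatocytes the Kupffer cell and endothelial markers all lie below 0 and above Plet1, and in liver Plet1 lies above all genes of the lists.

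The genotype difference of Plet1 in hepatocytes minus that in liver was −1.82 (SE 0.217), with a size that is not exact because of the dim hepatocyte arrays. Plet1 was chosen for this opposite direction, so that it passed the threshold, as 0.0106% of all genes did, restates the choice and nothing is read from it. Within the genotypes, hepatocytes minus liver was −4.06 for Plet1 in JNKΔhepa mice and −2.15 in WT mice, after joint normalisation, both lower bounds in size since hepatocyte arrays were dim. For Krt23 it was 0.73 in JNKΔhepa and 1.39 in WT mice, for Muc1 −0.92 and −0.42, and for Krt19 −1.28 and −1.78. The difference between the tissues in genotype effect was −0.75 (SE 0.172) for Krt23, −0.60 (SE 0.163) for Muc1, −0.52 (SE 0.281) for Cd24a and 0.46 (SE 0.182) for Krt19, and these did not pass. The count of 1 became 0 without JNKΔhepa liver replicate 1 or 2, WT liver replicate 1, or JNKΔhepa hepatocyte replicate 2 or 3.

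The wider biliary programme showed few genotype calls. In liver 1 of 37 other biliary genes passed limma over all genes, where 0.925% of genes passed, and 9 had an unadjusted p under 0.05, beside 12.5% of all genes. That gene was Slc5a1, a sodium-glucose cotransporter of the duct surface, which fell by 0.53 in JNKΔhepa (SE 0.105, limma adjusted p = 0.0339, size not exact). The call was lost without WT liver replicate 1 (adjusted p = 0.119) or 2 (0.128), or JNKΔhepa liver replicate 1 (0.131), 2 (0.0561) or 3 (0.116), and it was also lost under joint normalisation, in the 6 liver arrays alone and with the replicate number as a block. In hepatocytes 0 of the 37 passed limma, where 0.84% of all genes passed, and 5 had an unadjusted p under 0.05, close to the 12.6% of all genes. In liver the JNKΔhepa arrays lay wholly below WT in 9 of the 37 and wholly above in 3, beside 7.57% and 12.9% of all genes. In hepatocytes they lay wholly below in 3 and wholly above in 3, beside 7.32% and 7.36%.

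In limma 0 of 14 progenitor genes and 0 of 16 Notch pathway genes passed in either tissue. At an unadjusted p under 0.05 there were 1 progenitor and 2 Notch genes in liver (12.5% of all genes), and 2 of each in hepatocytes (12.6% of all genes). With a single array left out, 1 gene of each list passed in hepatocytes: Lgr5 without WT hepatocyte replicate 2 (adjusted p = 0.0148) and Jag1 without JNKΔhepa hepatocyte replicate 1 (adjusted p = 0.0393). The values closest to the threshold were those of Lgr5 in hepatocytes (−0.88, SE 0.214, limma adjusted p = 0.0872), Jag1, a Notch ligand, in hepatocytes (−0.45, SE 0.152, adjusted p = 0.223), Notch3 in liver (0.45, SE 0.13, adjusted p = 0.147, size not exact) and Tnfrsf12a, the TWEAK receptor, in liver (−0.29, SE 0.112, adjusted p = 0.287). The median genotype difference of the 37 other biliary genes was −0.0177 in hepatocytes and −0.0262 in liver, beside −0.0018 and 0.0155 over all genes.

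Other genes with a like pattern were sought by Pearson's correlation over the 12 arrays after each tissue's mean was subtracted, among genes brighter than the median gene. Each gene was set against 9409 or 9410 others. The closest r lay between 0.856 (Sox9 with Mlx) and 0.968 (Krt23), and genes without a genotype call reached values such as 0.918 (Cd24a with Dolk). Krt23 ran closest to the beta-defensin gene Defb1 (r = 0.968), Vipas39 (0.952) and Coq10a (0.93). Plet1 ran closest to Smarcb1 (0.9), Cfap20 (0.88) and Npr1 (0.867), and Muc1 to Rae1 (0.935), Zfp146 (0.908) and Hmgxb4 (0.905). Within the list, r ran from −0.773 for Krt19 and Krt23 to 0.831 for Krt23 and Muc1 over 28 pairs. Epcam and Sox9 had −0.711, Krt19 and Muc1 −0.676, and Epcam and Krt19 0.469. The arrays share mice and genotype, so these values are a description.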

How the data were processed

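The 12 one-colour arrays were deposited as 1 table of log2 values, which the authors made with RMA, per the submitters' processing notes. No genome build is named in the labels. The log base was read from the range of the values. Of 35556 probe sets, 21218 had 1 gene symbol in the platform annotation, 1881 several and 12457 are not named here. The brightest probe set stood for each of 18820 genes. Groups and mice came from the labels, and same-numbered samples of 1 genotype are the same mouse (correlation of deviations −0.0133 to 0.0982).

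Group means were fitted over all 12 arrays with limma 3.58.1 (R 4.3.3), two-sided, with Benjamini-Hochberg adjustment over all genes and a threshold of 0.05. The code was tested on simulated data. Hepatocytes minus liver was fitted after quantile normalisation over all arrays. Named genes were the 9 members, Mapk8 and Mapk9, up to 4 genes past the threshold with the smallest p from each list (or the 1 with the smallest p), and the 3 most alike genes. Krt8, Krt18, Hes1 and the marker genes were named outside this rule, after their values were seen. The number of arrays limits the precision. The members, lists, motifs and tests were chosen with earlier results of these data known.

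Alternatives were each array left out, the mouse as a block, the replicate number as a block, the mean over probe sets, a filter on dim genes, array weights, 1 tissue alone, and other scalings. Figures were drawn with matplotlib 3.10.9.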

Additional observations from a re-analysis of the deposited data

Results flagged for a closer look

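Plet1 differed between the tissues in its genotype effect: the log2 difference, JNKΔhepa minus WT, was −1.08 in hepatocytes and 0.73 in liver, and the first minus the second was −1.82 (SE 0.217). All 3 JNKΔhepa and 2 of the 3 WT hepatocyte arrays read below their median, so the size is not exact. It was chosen for this contrast, so the value is a description.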

How the results depend on the processing

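Hepatocytes minus liver gave 8 of 8 genes past the threshold under each setting that kept them all except as deposited, which gave 7 and turned Sox9 to −0.13. With genes below the median in every group left out, 3 of the list were still tested and all 3 passed. Of those 3 tested genes 1 passed in the liver genotype contrast, against 3 of 8 unfiltered. Krt23 and Muc1 were not tested under that filter. Leaving out single arrays gave 0 to 3 in liver, 1 in hepatocytes, 0 to 1 in the interaction and 8 between the tissues. With the mouse as a random or fixed replicate block no call of the list changed. The replicate number as a block, which pairs different mice across genotypes, gave 0 in liver and 1 in hepatocytes. Same-numbered mice of the 2 genotypes had correlations of −0.12 to 0.112. Of the 37 other biliary genes, 0 rose and 35 fell between the tissues as deposited, and 14 rose with median-centred arrays, against 5 and 15; in the Notch pathway 0 and 2 rose, against 1. In progenitor genes 0 rose and 13 fell as deposited and 7 rose with centred arrays, against 2 and 5. Over all settings the count that fell ran from 5 to 15 in the Notch pathway, against 10. It ran from 4 to 35 in the other biliary genes and from 3 to 13 in progenitor genes. All genes past the threshold in liver numbered 174, against 408 with array weights, 29 with the replicate number as a block and 80 to 225 with single arrays left out. In hepatocytes they numbered 158, against 245 without dim genes, 77 in that tissue's arrays alone, 80 with the number as a block and 61 to 387 with single arrays left out. The interaction gave 2, against 4 with array weights and 1 to 7 with single arrays left out. Between the tissues there were 8481, against 17371 as deposited, 13565 with centred arrays and 4530 without dim genes. Dim readings limit sizes for Krt23, Muc1, Epcam, Krt7 and Krt19, and for Plet1 and Cd24a wherever hepatocytes enter.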

Other observations

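Onecut1, the hepatocyte and biliary transcription factor HNF6, had genotype differences opposite to those of Plet1 in both tissues. It was 1.16 in hepatocytes (SE 0.348, limma adjusted p = 0.163) and −1.13 in liver (SE 0.348, adjusted p = 0.177). The first minus the second was 2.29 (SE 0.492, adjusted p = 0.35), which did not pass. Its JNKΔhepa arrays lay wholly above WT in hepatocytes and wholly below in liver, as in 7.36% and 7.57% of all genes. In hepatocytes Onecut1 passed without WT liver replicate 2 and with the replicate number as a block.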
